A study of Arabidopsis thaliana with 24 samples.

Results

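Transcript levels in Arabidopsis thaliana shoots were compared between 3 h and 1 h after salt was added, on 4 of the 24 arrays of the series, 2 at each time. The plants were of the accession Col-0, the common laboratory strain, grown on Murashige and Skoog medium at 24 degrees and 50% humidity in days of 16 h of light. On day 16, after 3 h of light, the rafts were taken out, sodium chloride was stirred into the medium to 150 mM, and the rafts were put back. Shoots and roots were collected separately, each with 2 arrays per time at 0.5, 1, 3, 6, 12 and 24 h. The members were chosen by their labels alone: the shoot arrays titled 3 h and those titled 1 h. All 4 arrays come from plants that had been salted and handled in the same way, and no untreated plants were analysed here, so time after salt, time of day and plant age cannot be told apart. The labels do not say that the 2 arrays of a time came from separate cultures. The p-values rest on the spread between such pairs, pooled over all 24 arrays with the roots included, and this spread may be technical.

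Salt in the medium lowers the water potential around the roots and brings sodium into the plant. Shoots are reached later than roots, and much of their early response runs through the hormone abscisic acid, whose signalling turns on genes for dehydrins and other late embryogenesis abundant (LEA) proteins, osmolyte enzymes and stress regulators. Growth genes, such as those for wall loosening, are commonly reduced in salted leaves.

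Values are signals of probe sets on ATH1 arrays, a microarray with short oligonucleotide probes, on a linear scale that the authors made with MAS5. Differences are log2 ± SE of 3 h minus 1 h fitted with limma. They are taken after 2.205 was added to each signal, so that the change of a dim gene is understated. A probe set was called when its adjusted p was under 0.05 and its difference at least 2-fold. Median signals lay between 37.7 and 40.5 on the 4 arrays. Across 15199 probe sets, the 2 arrays of 1 h correlated at r = 0.978 and those of 3 h at 0.977, while arrays of different times correlated at 0.919 to 0.932. Probe sets on 1 array are not independent of each other. Nuclear photosynthesis genes marked the tissue: 9 of 53 listed genes were measured, with mean signals from 2561 to 6733 in shoots at these times and from 12.9 to 135 in roots. Of 11 listed root markers 3 were measured, and their summed signal was 462 and 568 on the shoot arrays of 1 h, 549 and 1073 on those of 3 h, and between 2873 and 3523 on the root arrays of the same times; the beta-glucosidase gene PYK10 made up most of it.

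Of the 15199 probe sets tested, 691 (4.55%) were higher at 3 h than at 1 h and 431 (2.84%) were lower. The median difference over all of them was −0.05. Of those higher, 206 differed at least 4-fold and 71 at least 8-fold, against 52 and 7 of those lower. The probe sets that rose started from a median signal of 45.4 at 1 h and stood at 158 at 3 h, and those that fell went from 155 to 55.3. Both arrays of one time lay beyond both of the other for 689 of the 691 and for all 431 that were lower. The calls rest on these same arrays and favour such a separation, and its share over all probe sets was not counted. Of the called probe sets, 348 of those higher and 196 of those lower map to 1 gene in the gene table used, and 62 and 24 of these carry a symbol. The counts of called list members below stand beside the shares of 4.55% and 2.84%, and no list was tested against them. In whole shoots, fewer cells of a type and less RNA per cell cannot be told apart.

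**Figure D1:**
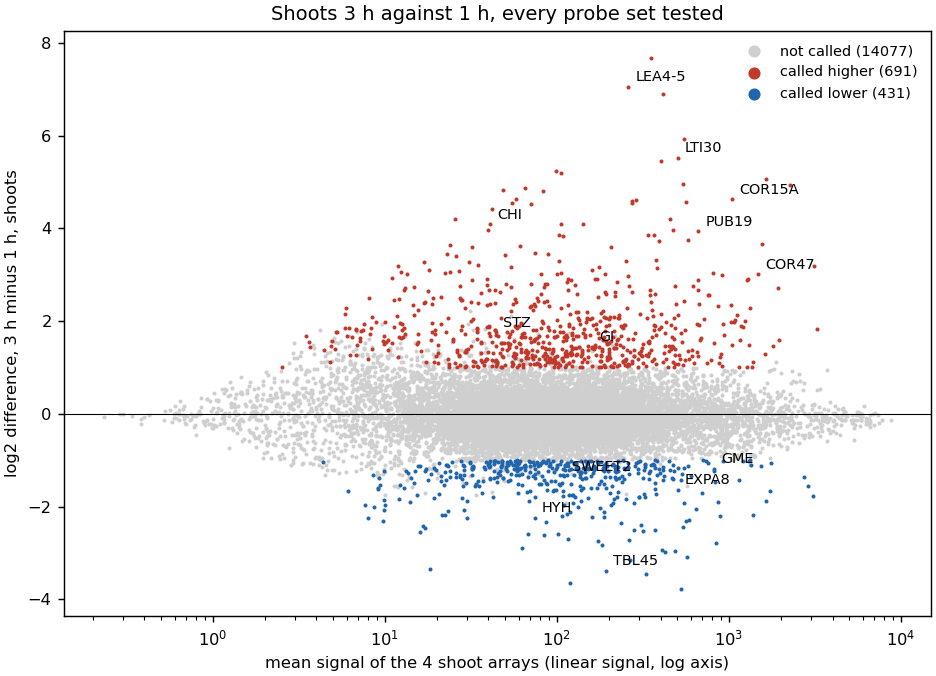
Each point is 1 of 15199 probe sets, with the mean signal of the 4 shoot arrays on a log axis and the log2 difference, 3 h minus 1 h, on the vertical axis. The 691 probe sets called higher reach a difference above 7, while the 431 called lower stay above −4.

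The 2 arrays of 3 h stood apart in how far the called probe sets had moved. Replicate 1 of 3 h lay above replicate 2 for 526 of the 691 probe sets that rose (76.1%), against 46.6% of all probe sets, and by a median log2 difference of 0.21. It lay below replicate 2 for 295 of the 431 that fell (68.4%), against 53.4% of all. At 1 h, replicate 1 lay above replicate 2 for 47.3% of the probe sets that rose, against 52% of all. Without replicate 1 of 3 h, 536 probe sets were called higher and 285 lower; without replicate 2, the counts were 641 and 444.

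Genes for LEA proteins and dehydrins, which are thought to protect proteins and membranes of drying cells, were among those that rose, by anything from 2.48 to 7.68 on the log2 scale. Of 20 genes in this list, 9 had a named probe set that passed the filter on dim values; 8 of the 9 rose, and 5 were called without replicate 1 of 3 h. Their median difference was 3.28, beside −0.05 over all probe sets, of which 4.55% were called higher. The filter leaves out members that stayed dim on nearly all arrays, so the 9 favour inducible genes. LEA18 reached its limit of 41.7 only in shoots at 24 h (46.7 and 46.3), and AtLEA4-1 only in roots at 6 h (75.1 and 77). LTI30, a dehydrin, gave signals of 20.0 and 18.5 at 1 h and 1014 and 965 at 3 h. Within a time its arrays nearly coincided, and the difference was 5.53 ± 0.18 (adjusted p = 1.28e-11). LEA4-5 gave 2.4 and 0.734 at 1 h and 693 and 344 at 3 h, a difference of 7.06 ± 0.58 (adjusted p = 7.41e-07). The locus AT3G02480, placed in the list from general knowledge of the family, gave 0.974 and 0.949 at 1 h and 991 and 425 at 3 h. Its difference of 7.68 ± 0.67 exceeded that of every other probe set tested. COR47, a second dehydrin, started at a higher level, with 329.7 and 311 at 1 h and 3017 and 2224 at 3 h, and rose by 3.01 ± 0.30 (adjusted p = 5.19e-06). The remaining 4 that rose stayed dimmer at 3 h: AT3G17520 with 1.81 and 5.04 at 1 h and 229.8 and 95.3 at 3 h, AT3G15670 with 0.841 and 1.3 at 1 h and 46.5 and 18.5 at 3 h, LEA18 with 0.507 and 0.399 at 1 h and 30.8 and 15.9 at 3 h and AtLEA4-1 with 2.45 and 1.57 at 1 h and 29.2 and 15.2 at 3 h. In each of the 4 the groups did not overlap, and replicate 1 of 3 h gave more than 1.5 times the signal of replicate 2. Without that array LEA18, AtLEA4-1 and AT3G15670 were not called, with differences of 2.77, 2.05 and 2.67. LEA18 was also lost without either array of 1 h, and AtLEA4-1 without replicate 2 of 1 h. The ninth, AT2G42560, gave 1.68 and 1.34 at 1 h and 1.78 and 1.3 at 3 h, a difference of 0.01 ± 0.71, and did not pass the test.

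The list of genes known to be induced by abscisic acid and salt had 7 of 22 members measured, LTI30 and COR47 among them. Of these 6 rose, with a median over the 7 of 3.04, while 4.55% of all probe sets were called higher. Members without a named probe set or dim on nearly all arrays were not counted here either. COR15A and COR15B, neighbouring genes for chloroplast proteins that stabilise membranes in the cold, both rose from low levels. COR15A gave 58.6 and 101 at 1 h and 2439 and 1569 at 3 h, a difference of 4.63 ± 0.79 (adjusted p = 7.23e-04), and COR15B gave 40.2 and 44.7 at 1 h and 1332 and 839 at 3 h, a difference of 4.57 ± 0.38 (adjusted p = 8.71e-07). The arrays of the 2 times were far apart for both genes. ALDH7B4, an aldehyde dehydrogenase of the turgor-responsive kind, gave 179 and 161 at 1 h and 1796 and 1113 at 3 h and rose by 3.04 ± 0.27 (adjusted p = 1.45e-06). XERICO, a RING-finger protein that raises abscisic acid levels when overexpressed, gave 99 and 129 at 1 h and 311 and 266 at 3 h, a smaller rise of 1.33 ± 0.15 (adjusted p = 2.08e-05) with little spread. HIS1-3, a drought-inducible linker histone, gave 35.4 and 19 at 1 h and 100.3 and 70.0 at 3 h. Its arrays did not overlap between the times, but its difference of 1.61 ± 0.58 did not pass the test (adjusted p = 0.0686); it was called when only the shoot arrays, only these 4 arrays or all but the root arrays of 12 h were fitted. Genes of abscisic acid synthesis and breakdown, abscisic acid signalling, sodium transport and aquaporins were not analysed here. None of those listed had a probe set that mapped to that gene alone and passed the filter on dim values.

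**Figure D2:**
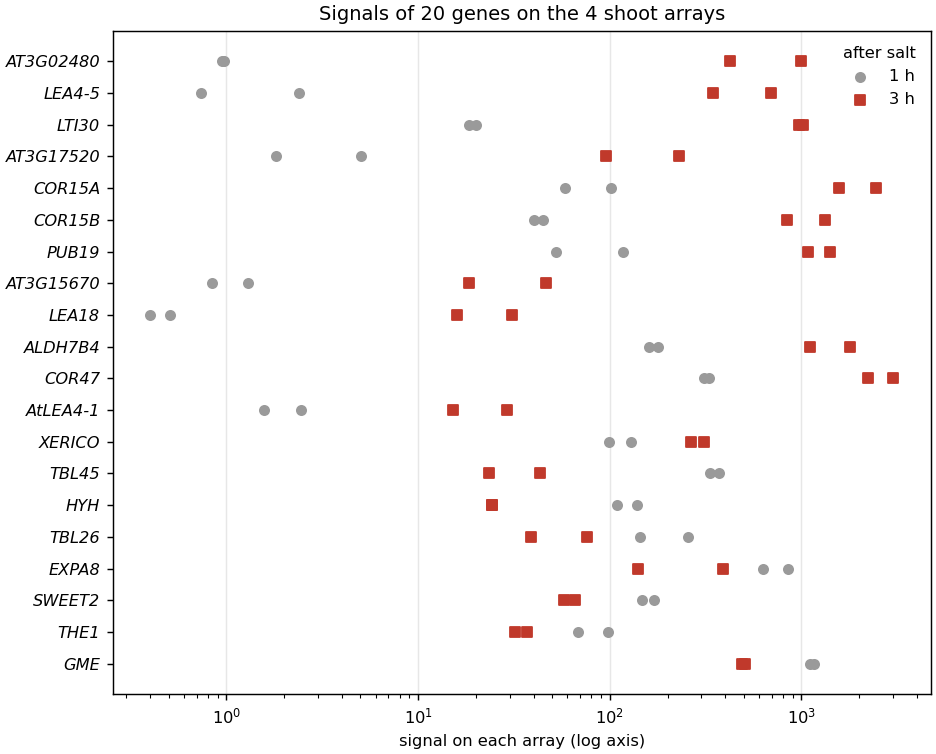
Each point is the signal of 1 gene on 1 shoot array, on a log axis, with circles for 1 h and squares for 3 h. All genes shown were called in this comparison, a choice that favours arrays lying apart. For each of the 13 genes at the top both arrays of 3 h lie to the right of both of 1 h, and for each of the 7 at the bottom to the left.

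Single genes of protein turnover and of transcription rose, while most measured members of their families, like most probe sets, were not called. Of all probe sets, 4.55% were called higher and 2.84% lower, and the counts below were not tested against these shares. Of 8 measured U-box ligase genes 1 was higher and none lower, with a median near 0; of 5 measured WRKY genes 1 was higher and 1 lower, with a median of −0.20; and of 11 measured bZIP genes none was higher and 2 were lower, with a median of 0.17. PUB19, a U-box ubiquitin ligase that restrains abscisic acid and drought responses, gave 52.2 and 117 at 1 h and 1408 and 1078 at 3 h, and rose by 3.94 ± 0.39 (adjusted p = 4.49e-06). PUB22, PUB23 and PUB24, of the same list, had differences of −1.30 ± 0.54, 0.20 ± 0.56 and 0.05 ± 0.40, none of which passed the test, although PUB22 was called lower, at −2.33, without replicate 2 of 3 h. Further genes of ubiquitin transfer that rose were LUL1, a RING ligase, by 1.31 ± 0.29, UBC32, a conjugating enzyme of the endoplasmic reticulum, by 1.31 ± 0.28, and SKP2A, an F-box protein, by 1.24 ± 0.16. UBC32 was the only one called among 15 measured genes of the endoplasmic reticulum stress list, whose median was 0.02. Among transcription factors, STZ, a zinc finger repressor of the salt response, gave 14.2 and 24.3 at 1 h and 65 and 72.5 at 3 h, and WRKY6 gave 2.4 and 5.04 at 1 h and 19.9 and 17.9 at 3 h. Their rises of 1.76 ± 0.50 (adjusted p = 0.0235) and 1.87 ± 0.51 (adjusted p = 0.0176) ended at signals far below those of the roots, where STZ stood at 2929 ± 422 and WRKY6 at 1077 ± 124 at 3 h. Both had also been brighter at 0.5 h than at 1 h, with STZ at 32.4 and 83.6 and WRKY6 at 5.4 and 29.4 on the 2 arrays of 0.5 h. AT5G47390, listed as KUODA1 in the gene table, rose by 1.05 ± 0.26 (adjusted p = 0.00939). SHN3, an AP2-type regulator of the cuticle, and WSD1, a wax ester synthase, rose by 2.24 ± 0.41 and 1.84 ± 0.46, with SHN3 at 5.09 and 2.99 at 1 h and 32.8 and 21.8 at 3 h and WSD1 at 55.2 and 62.5 at 1 h and 301 and 155 at 3 h. SIS, named for being salt-induced and serine-rich, gave 76.5 and 54.7 at 1 h and 567 and 353 at 3 h, and rose by 2.75 ± 0.38 (adjusted p = 1.16e-04). Without replicate 1 of 3 h, LUL1, UBC32, AT5G47390, STZ, WRKY6 and WSD1 were not called. STZ and WRKY6 were also lost without replicate 2 of 3 h or replicate 1 of 1 h, WSD1 without replicate 1 of 1 h and AT5G47390 without replicate 2 of 1 h. With a pseudocount of 16 the differences of STZ, WRKY6 and AT5G47390 were 1.28 (adjusted p = 0.0636), 0.83 (adjusted p = 0.114) and 0.99, and none of the 3 was called.

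Genes of starch and sugar handling moved in both directions. APL3 and APL4, large subunits of the enzyme that makes ADP-glucose for starch, rose by 1.75 ± 0.35 (adjusted p = 0.00221) and 1.67 ± 0.35 (adjusted p = 0.00303). APL3 gave 44.4 and 62.1 at 1 h and 247 and 134 at 3 h, and APL4 17.5 and 30.9 at 1 h and 97.9 and 64.1 at 3 h. DPE1, a plastid enzyme that recycles maltotriose during starch breakdown, gave 88.4 and 92.8 at 1 h and 280.4 and 278 at 3 h and rose by 1.60 ± 0.19 (adjusted p = 2.04e-05). TMT2, which loads sugars into the vacuole, rose by 1.57 ± 0.33. Of 9 measured SWEET genes, which encode sugar transporters, 2 rose and 1 fell, with a median of −0.21. The shares over all probe sets were 4.55% higher and 2.84% lower. SAG29, also known as SWEET15, gave 123 and 224 at 1 h and 967 and 863 at 3 h and rose by 2.44 ± 0.51 (adjusted p = 0.00343), and SWEET4 gave 32.8 and 42 at 1 h and 151 and 82.9 at 3 h and rose by 1.54 ± 0.33 (adjusted p = 0.004). SWEET2, a transporter of the vacuole membrane, gave 171 and 148 at 1 h and 57.4 and 65.7 at 3 h and fell, with a difference of −1.34 ± 0.31 (adjusted p = 0.00614). ATSPS4F, a sucrose phosphate synthase, gave 475 and 599.6 at 1 h and 182 and 304 at 3 h and also fell, with a difference of −1.18 ± 0.37 (adjusted p = 0.0397). Without replicate 1 of 3 h, APL3, APL4, SWEET4, SWEET2 and ATSPS4F were not called, with differences of 1.32, 1.38, 1.11, −1.25 and −0.81. Without replicate 1 of 1 h, APL4, TMT2, SAG29, SWEET2 and ATSPS4F were not called, and ATSPS4F was also lost without replicate 2 of 1 h, under quantile normalization, with no filter on dim values and with the shoot arrays alone.

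A few enzymes of amino acid breakdown and respiration rose. Of 23 measured genes of respiration and the citric acid cycle NDB2 was the only one called, near the share over all probe sets, and their median was −0.19. At an adjusted p under 0.05 with no limit on fold 3 of them were higher and 2 lower. By that limit 1276 of all 15199 probe sets were higher and 1382 lower. By the limits for a call, 4.55% of all probe sets were higher and 2.84% lower. MGL, methionine gamma-lyase, rose by 1.86 ± 0.41, and AT4G33150, listed in the gene table as lysine-ketoglutarate reductase and saccharopine dehydrogenase, by 1.67 ± 0.37. FDH, formate dehydrogenase, rose by 1.09 ± 0.25 and NDB2, an NADH dehydrogenase of the mitochondrial membrane, by 1.47 ± 0.32. The vacuolar protease BETA-VPE rose by 1.68 ± 0.22, and ATG8H, 1 of 7 measured ATG8 genes that encode the membrane anchor of autophagosomes, by 1.20 ± 0.21. All 7 ATG8 genes had a positive difference, with a median of 0.61; 4 had an adjusted p under 0.05, and ATG8H was the only one of them to reach 2-fold. ATG8E, APG8H and ATG8G, the other three, gave 0.68 ± 0.20, 0.70 ± 0.19 and 0.54 ± 0.17. MGL, AT4G33150, FDH and NDB2 were not called without replicate 1 of 3 h, nor FDH without replicate 2 of 1 h or under quantile normalization. ARD4, an enzyme that recycles methionine, rose by 1.01 ± 0.24 and was lost without replicate 1 of either time or under quantile normalization. With a pseudocount of 16 ATG8H, at 0.96, fell short of 2-fold.

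Further named genes that rose belong to several families. UGT85A5, a UDP-glycosyltransferase, gave 13.2 and 18.9 at 1 h and 145 and 104 at 3 h and rose by 2.80 ± 0.32 (adjusted p = 1.99e-05). It was joined by UGT76C1 at 1.18 ± 0.23, while UGT76C2, with 68.8 and 88.6 at 1 h and 34.6 and 41.3 at 3 h, was called lower at the 2-fold limit; both encode enzymes that attach glucose to cytokinins, and 33 members of the family were measured. CCR2, a cinnamoyl-CoA reductase of lignin synthesis, gave 1.67 and 2.06 at 1 h and 25.1 and 22.6 at 3 h and rose by 2.68 ± 0.18 (adjusted p = 1.24e-07), from a low level. CHI gave 3.52 and 1.19 at 1 h and 110.0 and 48.2 at 3 h, CYP71B26, a cytochrome P450, gave 249 and 229 at 1 h and 865 and 748 at 3 h, and ZW9 gave 197 and 228 at 1 h and 1386 and 883 at 3 h, with differences of 4.09 ± 0.61, 1.74 ± 0.26 and 2.37 ± 0.23. CYP71B26 was the only one called among 11 measured CYP71B genes, whose median was 0.16. Across all probe sets 4.55% were called higher and 2.84% lower. Of 13 measured beta-glucosidase genes BGLU44 and BGLU46 rose, by 1.19 ± 0.26 and 1.18 ± 0.36, and none fell. BGLU44 gave 248 and 274 at 1 h and 645 and 558 at 3 h. BGLU46 was near the bottom of the range, with 4.89 and 2.79 at 1 h and 7.22 and 17.2 at 3 h. It stayed below 41.7 on every shoot array and passed the filter on dim values through its root signals. TET3, a tetraspanin, rose by 1.14 ± 0.13, and Fes1B, a cofactor of Hsp70 chaperones, by 2.05 ± 0.28 (adjusted p = 8.68e-05). UGT76C1 was not called without replicate 2 of 1 h, UGT76C2 without that array or replicate 1 of 3 h, and BGLU46 without either array of 1 h or replicate 2 of 3 h. BGLU46 was also lost with a pseudocount of 16, where its difference was 0.49 (adjusted p = 0.244), under quantile normalization, and with only the shoot arrays or only these 4 arrays in the fit. UGT76C1 and UGT76C2 were lost with that pseudocount too, and UGT76C2 under both quantile normalization and median centring of the arrays.

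Among genes that follow the day, GI, a clock component that peaks late in the light period, gave 79 and 89.2 at 1 h and 260.2 and 209.9 at 3 h and rose by 1.45 ± 0.20 (adjusted p = 1.29e-04). It was the only member to pass among 3 measured of 28 listed clock genes. COR27 gave 0.968 and 4.75 at 1 h and 0.979 and 0.401 at 3 h and AT4G33980 gave 1.86 and 0.554 at 1 h and 0.374 and 4.46 at 3 h, all near the bottom of the signal range, with differences of −0.71 ± 0.47 and 0.31 ± 0.44. PORB, a light-dependent enzyme of chlorophyll synthesis, gave 612 and 754 at 1 h and 1946 and 1887 at 3 h and rose by 1.49 ± 0.32 (adjusted p = 0.00379), and CCL gave 1220.1 and 763 at 1 h and 3179.6 and 2695 at 3 h and rose by 1.60 ± 0.29 (adjusted p = 0.00129). The 2 times fell 4 h and 6 h into the light period, and the part of the clock in these changes was not tested.

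The named genes that fell included genes of the wall, of light signalling and of ascorbate synthesis. TBL45, of the trichome birefringence-like family that acetylates wall polysaccharides, gave 371 and 335 at 1 h and 23.3 and 43.1 at 3 h and fell by the most among genes with a symbol, with a difference of −3.38 ± 0.29 (adjusted p = 1.09e-06). TBL26, of the same family, gave 143 and 255 at 1 h and 38.6 and 75.6 at 3 h, a difference of −1.78 ± 0.33 (adjusted p = 0.00124). These were the only 2 called among 14 measured TBL genes, whose median was −0.13. For comparison, 2.84% of all probe sets were called lower and 4.55% higher. HYH, a bZIP factor that promotes light responses beside HY5, gave 109 and 138 at 1 h and 24.2 and 24.4 at 3 h, a difference of −2.24 ± 0.31 (adjusted p = 1.02e-04). BZIP61, another bZIP factor, gave 26.3 and 9.87 at 1 h and 1.67 and 1.38 at 3 h, a difference of −2.31 ± 0.72 (adjusted p = 0.0368), and was not called when replicate 1 of 1 h or either array of 3 h was left out. It was not called either with a pseudocount of 16, where the difference was −0.92 (adjusted p = 0.176), or with no filter on dim values (adjusted p = 0.0513). EXPA8, an expansin, a protein that loosens walls, gave 852 and 630.1 at 1 h and 141 and 391 at 3 h, a difference of −1.63 ± 0.51 (adjusted p = 0.0365); without replicate 1 of 3 h the difference was −0.90 and was not called, and it was also lost without either array of 1 h, with no filter on dim values and with the shoot arrays alone. In the same family EXPA16 and EXPB1 rose, with EXPA16 at 23.6 and 23.5 at 1 h and 297 and 121 at 3 h, a difference of 2.90 ± 0.73 (adjusted p = 0.0114), and EXPB1 at 1.05 ± 0.34; of 26 measured genes of wall loosening, 2 rose and 1 fell, with a median of −0.03. EXPA16 was not called without replicate 1 of 3 h or either array of 1 h, and EXPB1 was lost without any of the 4 arrays, with a pseudocount of 16, with no filter on dim values and with the shoot arrays alone.

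GME, which makes GDP-galactose on the way to ascorbate and wall sugars, gave 1162 and 1106 at 1 h and 492 and 508 at 3 h, a small fall with little spread, −1.18 ± 0.15 (adjusted p = 6.69e-05). MSRB6, a methionine sulfoxide reductase, gave 336 and 353 at 1 h and 91.5 and 121 at 3 h, and THE1, a receptor kinase that senses wall damage, gave 98.3 and 68 at 1 h and 31.9 and 36.8 at 3 h, with differences of −1.69 ± 0.52 (adjusted p = 0.0354) and −1.20 ± 0.37 (adjusted p = 0.0361). Neither was called when any of the 4 arrays was left out, and the same held for SCPL34, a serine carboxypeptidase-like gene, at −1.44 ± 0.41, and TET10, a tetraspanin, at −1.31 ± 0.42. TET10 was also lost with no filter on dim values and with the shoot arrays alone, and THE1 under quantile normalization. WRKY47, the jasmonate factor MYC4 and the calmodulin-like CML30 fell as well, with differences of −1.24 ± 0.31, −1.07 ± 0.26 and −1.09 ± 0.21. P1R1 gave 198 and 181 at 1 h and 41 and 73.1 at 3 h and SAL2 gave 15.5 and 14.5 at 1 h and 4.98 and 2.67 at 3 h, with differences of −1.75 ± 0.35 and −1.54 ± 0.41. AT1G08280, listed as glycosyltransferase 29A, and AT4G38100, listed as curvature thylakoid 1D, fell with differences of −1.27 ± 0.27 and −1.09 ± 0.18. Without replicate 1 of 3 h, WRKY47, MYC4, P1R1 and AT1G08280 were not called; without replicate 2 of 3 h, SAL2 and AT4G38100 were not. WRKY47 and SAL2 were also lost without either array of 1 h, CML30 without replicate 1 of 1 h and MYC4 without replicate 2 of 1 h. With a pseudocount of 16, SAL2 gave −0.65 (adjusted p = 0.0643), and SAL2, THE1, WRKY47, MYC4, CML30, AT1G08280 and AT4G38100 were not called. The fall of these named genes was shallower than that of the rising ones: TBL45 was the only one with a symbol to fall at least 8-fold.

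Many of the largest changes belong to genes that the gene table gives only as locus codes; those named here were chosen after their values were seen. AT2G21820 gave 1.82 and 5.77 at 1 h and 241 and 173 at 3 h, AT2G41190 32.6 and 28.3 at 1 h and 1325 and 765 at 3 h and AT3G57010 1.46 and 0.909 at 1 h and 110.3 and 81 at 3 h. Their differences were 5.19 ± 0.80, 4.95 ± 0.56 and 4.84 ± 0.60, and AT5G50360 followed at 4.55 ± 0.49. All 4 were dim on both arrays of 1 h. On the falling side AT1G06830 gave 165 and 282 at 1 h and 17.2 and 13.3 at 3 h, AT5G44020 914 and 812 at 1 h and 106 and 113 at 3 h and AT1G66940 559 and 527 at 1 h and 82 and 104 at 3 h. Their differences were −3.65 ± 0.36, −2.95 ± 0.35 and −2.52 ± 0.22. AT5G54130 was measured by 2 probe sets that changed alike, at −2.82 and −2.70. AT3G22240 fell from a bright level, 1312 and 1576 at 1 h and 133 and 319.9 at 3 h, a difference of −2.79 ± 0.42 (adjusted p = 2.58e-04), but stood at 3271 and 2206 on the 2 arrays of 6 h, above its level at 1 h. AT3G04210 gave 95 and 123 at 1 h and 5.36 and 26.4 at 3 h and was not called when replicate 1 of 3 h or either array of 1 h was left out. The gene table gave no gene for 325 of the probe sets that rose and 227 of those that fell. The steepest of these were 248352_at, with 5.11 and 2.34 at 1 h and 1281 and 362 at 3 h, and 245627_at, with 6.28 and 33.5 at 1 h and 1244 and 913 at 3 h, on the rising side, and 246114_at, with 1191 and 769.9 at 1 h and 58.8 and 77.4 at 3 h, and 245265_at, with 576 and 626 at 1 h and 31.6 and 88.2 at 3 h, on the falling side.

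Other gene lists held few or no called members. With 4.55% of all probe sets called higher and 2.84% lower, no call in a list of 10 or fewer genes is near these shares. Among 9 nuclear photosynthesis genes none was called, with a median of −0.12, and among 69 plastid-encoded genes none, with a median of −0.07 and a range from −0.51 to 0.54. None of 7 heat shock genes, 6 auxin genes, 10 genes of mitosis, 7 tubulin genes or 4 reference genes was called, with medians of 0.11, 0.16, −0.19, −0.13 and −0.01. At an adjusted p under 0.05 with no limit on fold, 1 tubulin gene was lower and none of the others passed. By that limit 1276 of all 15199 probe sets were higher and 1382 lower. Members bright on root arrays alone pass the filter on dim values, while those dim on nearly all arrays do not. Of 6 measured histone genes none was called, but 3 fell with an adjusted p under 0.05, HTB11 with −0.83 ± 0.23. The reference genes GAPC2, PEX4, AT4G34270 and AT2G28390 gave −0.24 ± 0.11, 0.19 ± 0.12, −0.22 ± 0.16 and 0.31 ± 0.15, and none passed the test. The touch-induced CML38 gave 8.85 and 7.52 at 1 h and 13.7 and 26.6 at 3 h, a difference of 1.05 ± 0.53 that did not pass the test, except without the root arrays of 12 h. GTR2, a glucosinolate transporter, was lower by −0.96 ± 0.17 with an adjusted p of 8.49e-04, just short of 2-fold, and was called without replicate 1 of either time; none of 5 glucosinolate genes was called.

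**Figure D3:**
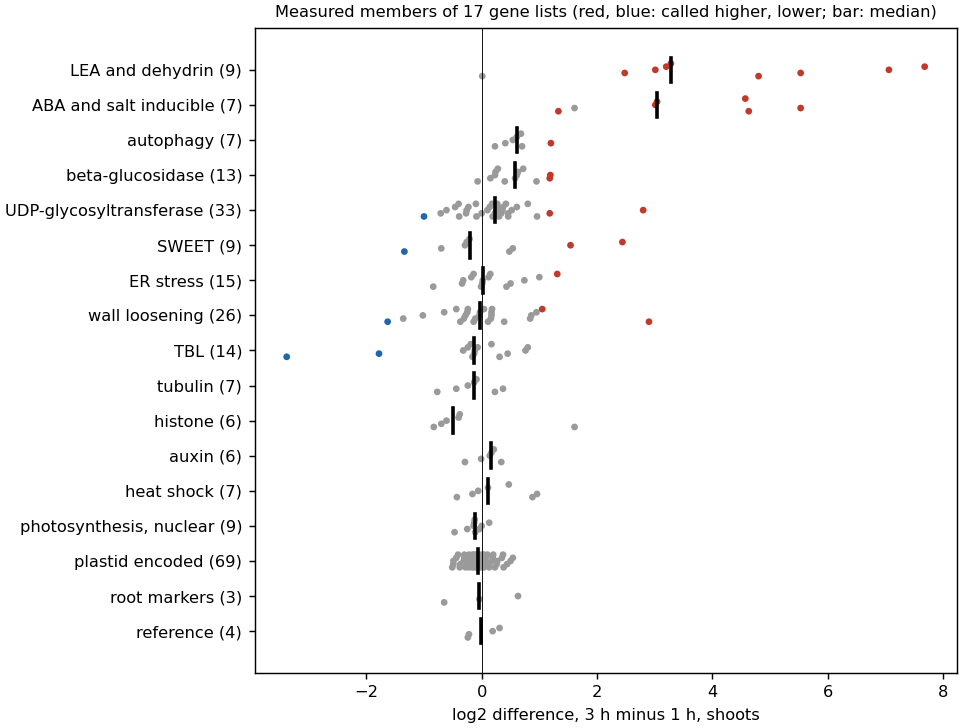
Each point is the log2 difference, 3 h minus 1 h, of 1 measured member of a gene list, with the number measured in brackets and a bar at the median. The LEA and dehydrin list reaches from 0.01 to 7.68, while the 69 plastid-encoded genes lie between −0.51 and 0.54.

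Roots showed a different course over the same step. The change from 1 h to 3 h was higher in shoots than in roots for 717 probe sets (4.72%) and lower for 560 (3.68%), by the interaction term of the same fit. The dehydrins LTI30 and COR47 were already bright in roots at 1 h and stood at like levels at 3 h: LTI30 gave root signals of 3681 and 3026 at 1 h and 3569 and 3193 at 3 h, and COR47 2679.8 and 1847 at 1 h and 2555 and 1528 at 3 h. Their root differences were 0.02 ± 0.18 and −0.17 ± 0.30, and the shoot change exceeded the root change by 5.51 ± 0.25 (adjusted p = 3.19e-09) and 3.18 ± 0.43 (adjusted p = 3.20e-04). COR47 in shoots reached the range of the roots at 3 h, while LTI30 in shoots stayed below it. LEA4-5 was also brighter at 3 h in roots, with 337 and 107 at 1 h and 839 and 502 at 3 h, and its change in shoots was larger by 5.30 ± 0.82 (adjusted p = 9.24e-04). COR15A gave root signals of 7.5 and 23.3 at 1 h and 154 and 83.2 at 3 h, and the tissues did not differ in its change by the test, 1.76 ± 1.12 (adjusted p = 0.327). COR15B and PUB19 rose more in shoots, by 3.99 ± 0.54 (adjusted p = 3.20e-04) and 3.29 ± 0.56 (adjusted p = 0.00175), and were at 23.7 ± 6.45 and 855 ± 184 in roots at 3 h. GI gave root signals of 245 and 203 at 1 h and 265 and 213 at 3 h, and its change was larger in shoots by 1.36 ± 0.29 (adjusted p = 0.00813).

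In the opposite direction, some genes were brighter in roots at 3 h than at 1 h and dim in shoots at both times. GH3.1, an enzyme that conjugates auxin, gave root signals of 15.1 and 18.1 at 1 h and 214 and 371 at 3 h and shoot signals of 2.14 and 0.901 at 1 h and 1.56 and 2.36 at 3 h, a difference in change of −3.74 ± 0.81 (adjusted p = 0.00909). WRKY22, a defence regulator, gave root signals of 24.6 and 38.9 at 1 h and 289 and 332 at 3 h and shoot signals of 18.9 and 20.9 at 1 h and 15.2 and 13.4 at 3 h, a difference of −3.66 ± 0.69 (adjusted p = 0.00418). JRG21, a jasmonate-regulated gene, and scpl30 differed by −3.82 ± 0.76 (adjusted p = 0.00569) and −3.64 ± 0.50 (adjusted p = 3.64e-04), and COR27 by −2.89 ± 0.66 (adjusted p = 0.012). GH3.1 and COR27 lost this call when single arrays were left out. The median root difference of the 7 heat shock genes was 2.08 and that of the 6 auxin genes 1.50, against −0.12 over all probe sets. Each list held 24 genes. The filter on dim values keeps genes bright on root arrays alone, as GH3.1 was, so these medians favour genes that are high in roots. Both SWEET2 and MSRB6 fell in shoots and were brighter in roots at 3 h: SWEET2 gave root signals of 60.4 and 41.6 at 1 h and 178 and 138 at 3 h, and MSRB6 15.2 and 43.4 at 1 h and 59.6 and 192 at 3 h. Their differences between tissues were −2.95 ± 0.43 (adjusted p = 6.59e-04) and −3.65 ± 0.74 (adjusted p = 0.0062). TBL45 was low in roots throughout, with 16.5 and 34.1 at 1 h and 17.7 and 25.7 at 3 h, and its fall was larger in shoots by −3.24 ± 0.42 (adjusted p = 2.16e-04).

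**Figure D4:**
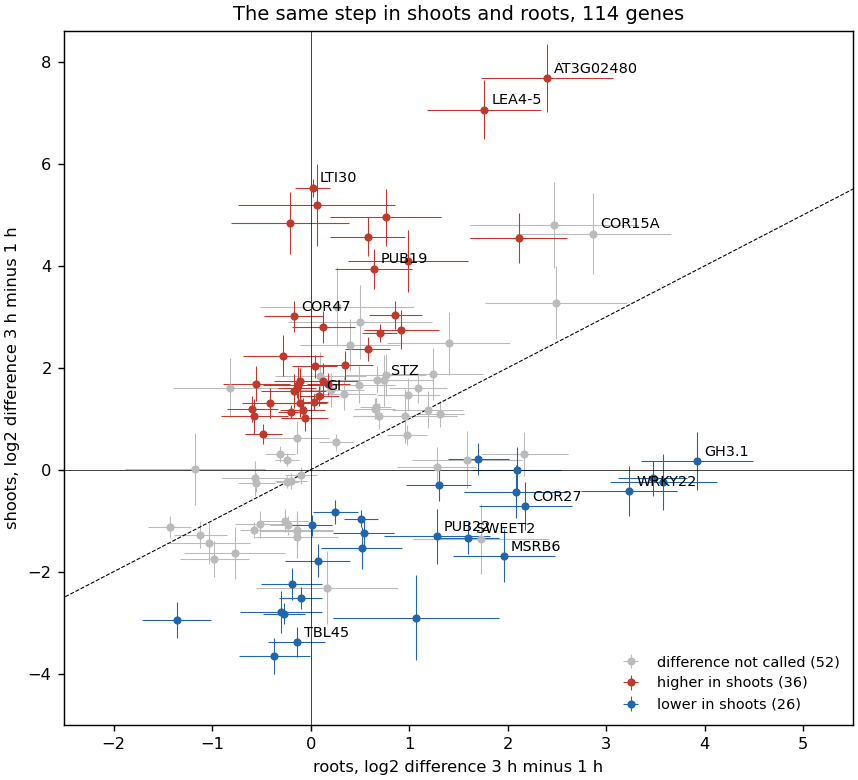
Each point is 1 of 114 genes named by rule or in the text, with the log2 difference of 3 h minus 1 h in roots across and in shoots upward, bars of 1 SE and a dashed line of equal change; red and blue mark a change called higher or lower in shoots than in roots, and grey the others. LTI30 and COR47 lie near 0 across and above 3 upward, and GH3.1 and WRKY22 lie above 3 across and near 0 upward.

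The shoot arrays of 24 h and 0.5 h are separate from those of this step and were compared with each other. Of the 691 probe sets that rose, 396 (57.3%) were also higher at 24 h than at 0.5 h, and these were 34.9% of the 1136 (7.47%) called higher there. Another 43 of the 691 were lower at 24 h than at 0.5 h. Of the 431 that fell, 155 (36%) were lower at 24 h, which is 14.7% of the 1058 (6.96%) called lower there, and 8 were higher. Relative to 0.5 h, the probe sets that rose had a median difference of 1.59 at 6 h, 1.34 at 12 h and 1.34 at 24 h, and those that fell −1.10, −0.84 and −0.70. Over all probe sets these medians were 0.05, 0.04 and −0.02.

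Single genes followed several courses after 3 h. LTI30, COR15A and LEA4-5 stayed high, with mean signals at 24 h of 1198 ± 241, 2599.9 ± 964 and 1227 ± 64 (SD, n = 2). APL3 and SWEET4 stood higher still at later times, APL3 at 717 ± 82.4 at 24 h and SWEET4 at 380.3 ± 22.6 at 6 h. PUB19 was brightest at 3 h and stood at 353 ± 36 at 6 h and 455 ± 14.5 at 24 h. SIS was brightest at 3 h as well: it stood at 75.3 ± 30.9 at 6 h and 44 ± 0.172 at 24 h, below its level of 160.0 ± 33 at 0.5 h. GI stood at 451 ± 64.9 at 6 h and at 35.9 ± 1.88 at 24 h, and PORB at 2688 ± 591 and 159 ± 39.6. Fes1B stood at 22.9 ± 5.96 at 24 h. TBL45 stayed low, at 35.4 ± 5.51 at 24 h, and EXPA8 at 56.1 ± 13.8 at 6 h and 0.816 ± 0.416 at 24 h. TBL26, HYH and THE1 were no longer low at 24 h, at 231 ± 17.2, 78.4 ± 12 and 143 ± 3.94.

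**Figure D5:**
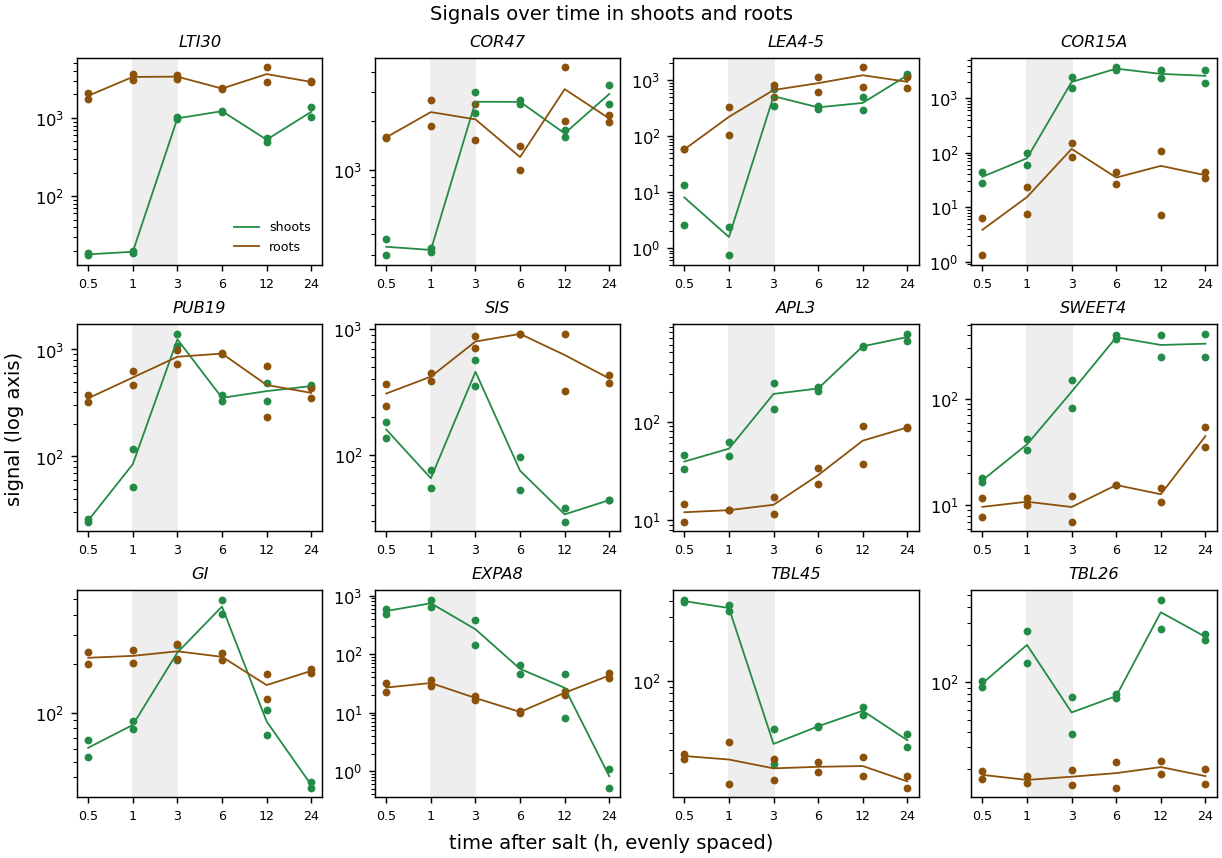
Points are signals on single arrays and lines join the means of 2 arrays, on log axes that differ between panels, for shoots and roots at 6 times after salt; the step from 1 h to 3 h is shaded. LTI30 and COR47 climb in shoots within the shaded step while their root lines are near level, and SIS in shoots peaks at 3 h.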

How the data were processed

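The deposited values are intensity signals of 22810 probe sets on 24 arrays, on a linear scale. MAS5 is named in the submitters' processing notes, without a version. Their scaling was kept, and 64 control probe sets were left out. A probe set was kept if 2 or more arrays reached 41.7, the median of all values, which left 15199. The 10th percentile of all values, 2.205, was added before taking log2. Detection calls were not used, and the number of arrays limits the precision.

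A single limma fit (lmFit, then eBayes with a trend, version 3.58.1 under R 4.3.3) estimated 12 group means from all arrays, with 12 residual and 4.15 prior degrees of freedom. Contrasts were shoots 3 h minus 1 h, that change in shoots minus the one in roots, and shoots 24 h minus 0.5 h. Two-sided p-values from limma were adjusted over the 15199 probe sets by Benjamini-Hochberg, and a probe set was called at an adjusted p under 0.05 with 2-fold or more. The procedure was tested on simulated data. Figures were drawn with matplotlib 3.10.9.

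In the gene table (RefSeq names, TAIR10.1), 13513 probe sets map to 1 gene, 503 to several and 8794 to none; of several probe sets for a gene the brightest was used. Named genes were, per direction, the 14 largest differences with a symbol and up to 5 described locus codes among called probe sets whose arrays did not overlap; the 5 highest and 5 lowest of the interaction; up to 4 called members per gene list; all measured clock, abscisic acid synthesis, zinc finger and reference genes; and a few fixed by name. Any other gene in the text was picked after its values were seen. The arrays compared and the lists were chosen with earlier results of these data known. The fit has no replicate block, since nothing in the labels tells what a number stands for. Alternatives were other pseudocounts, scalings, filters, limits and subsets of arrays, no trend, and a replicate block.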

Additional observations from a re-analysis of the deposited data

Results flagged for a closer look

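The change from 1 h to 3 h differed between shoots and roots, by the interaction term of limma with an adjusted p under 0.05 and at least 2-fold, for 62 of the 114 genes named by rule or in the text. In 36 it was higher in shoots and in 26 lower. Many of the 114 were named for a large change in shoots or a large difference between tissues, which raises this share. Across the 15199 probe sets the change was higher in shoots for 4.72% and lower for 3.68%. Each value in brackets is the log2 change in shoots minus that in roots. Among LEA, dehydrin and stress-inducible genes it was higher in shoots for LTI30 (5.51), LEA4-5 (5.30), AT3G02480 (5.28), COR15B (3.99), COR47 (3.18), ALDH7B4 (2.19), XERICO (1.30) and SIS (1.83). Genes of ubiquitin transfer, transcription, the clock and the vacuole followed, with PUB19 (3.29), SHN3 (2.51), LUL1 (1.72), UBC32 (1.43), GI (1.36), BETA-VPE (1.50) and APG8H (1.18). In sugar, wall and secondary metabolism the excess in shoots was found for APL3 (1.62), APL4 (1.80), DPE1 (1.74), SWEET4 (1.71), UGT85A5 (2.67), UGT76C1 (1.26), CCR2 (1.98), CYP71B26 (1.85), BGLU44 (1.78) and EXPB1 (1.62), and elsewhere for CHI (3.10), ZW9 (1.79), RALFL32 (2.23), CPUORF47 (1.98), Fes1B (1.70), TET3 (1.35) and ARD4 (1.08). Locus codes with the same direction were AT2G21820 (5.13), AT3G57010 (5.05), AT2G41190 (4.19) and AT5G50360 (2.44).

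The change was lower in shoots for genes that were brighter at 3 h in roots, among them JRG21 (−3.82), GH3.1 (−3.74), WRKY22 (−3.66), scpl30 (−3.64), COR27 (−2.89), PUB22 (−2.58), AT2G29500 (−2.51), IAA29 (−2.11), LBD16 (−1.59) and WES1 (−1.48). The auxin-responsive IAA29, LBD16 and WES1 and the small heat shock locus AT2G29500 had shoot differences that did not pass the test. It was also lower for genes that fell in shoots: TBL45 (−3.24), TBL26 (−1.84), HYH (−2.05), MSRB6 (−3.65), SWEET2 (−2.95), SAL2 (−2.06), WRKY47 (−1.78) and CML30 (−1.10) and the locus codes AT3G04210 (−3.97), AT1G06830 (−3.28), AT5G54130 (−2.55), AT3G22240 (−2.49), AT1G66940 (−2.42) and AT5G44020 (−1.60). GTR2 and HTB11, which missed 2-fold in shoots, differed by −1.47 and −1.08. Of the 62 calls, 32 held whichever of the 8 arrays was left out, LTI30, LEA4-5, COR15B, COR47, PUB19, GI, TBL45, SWEET2, MSRB6 and GTR2 among them. The calls of HTB11 and AT5G44020 were lost whichever array was left out, and those of APL3, ARD4, CML30, EXPB1, IAA29, LBD16, SAL2, SIS, AT2G29500 and AT5G50360 held in only 1 of the 8 fits. With 2 arrays in each group, no group was tested for an outlying array.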

How the results depend on the processing

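The rise and fall in shoots from 1 h to 3 h, at 691 and 431 probe sets, moved by over 1.5 times under few settings. A pseudocount of 16 left 258 lower (513 higher), and with no fold limit 1276 were higher and 1382 lower. The spread is pooled over both tissues, and without the root arrays of 12 h 782 were higher and 474 lower, a smaller move. Leaving out 1 array in turn gave 536 to 641 higher and 285 to 444 lower, and the lowest counts came without replicate 1 of 3 h, with 536 and 285. With the replicate number as a block, 684 were higher and 427 lower, and no named gene changed its call; same-numbered arrays share only a number as far as the labels say, and their deviations at 1 h and 3 h in shoots correlated at 0.01. For the interaction, 717 higher and 560 lower, the block gave 691 and 552; an adjusted p under 0.01 left 298 and 168, and without the root arrays of 12 h 994 were lower and 1005 higher. Leaving out 1 of its 8 arrays gave 337 to 608 higher and 208 to 437 lower. The counts fell by over 1.5 times in both directions without replicate 1 of shoots at 3 h (413 and 241), replicate 1 of roots at 1 h (376 and 249) or replicate 2 of roots at 3 h (337 and 208), and in the lower direction also without replicate 1 or 2 of shoots at 1 h (311 and 360) or replicate 2 of roots at 1 h (320). At 24 h against 0.5 h, 2417 were higher and 2396 lower with no fold limit, and 1130 and 1061 with the block. Of 84 named genes called in the main comparison, 42 lost the call under at least 1 alternative other than the limits for a call, most of them when an array was left out: 34 when replicate 1 of 3 h was dropped and 11 for replicate 2, against 24 and 19 for the 2 arrays of 1 h. A pseudocount of 16 took the call from 16 of them, with SAL2 moving from −1.54 to −0.65 and WRKY6 from 1.87 to 0.83; quantile normalization took it from 6, the absence of a filter on dim values from 5, the shoot arrays alone from 5, and median centring and the 4 arrays alone from 1 each. None changed direction. The LEA and dehydrin list kept 5 to 8 called members and the abscisic acid list 6 or 7 under these alternatives, which were applied to the lists and to the genes added in the text after seeing the data. The interaction has no value with the shoot arrays alone. Signals near the bottom of the range, such as those of LEA18 at 1 h, have no measured background here, so the size of such changes depends on the pseudocount.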

Other observations

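Neighbouring genes that were both called did not always move alike; these pairs were noticed after the values were seen and were not tested as pairs. CPUORF47 and LUL1 are neighbours on chromosome 5. CPUORF47, named for a conserved upstream reading frame, gave 43.5 and 59.3 at 1 h and 260.1 and 175 at 3 h, and rose by 2.03 ± 0.23 (adjusted p = 1.99e-05), while LUL1 gave 51.6 and 43.6 at 1 h and 139 and 105 at 3 h. COR15A and COR15B, neighbours on chromosome 2, also rose together. UGT76C1 and UGT76C2, neighbours on chromosome 5 with the same enzyme activity, moved in opposite directions: UGT76C1 rose by 1.18 ± 0.23 (adjusted p = 0.00214), and UGT76C2 gave 68.8 and 88.6 at 1 h and 34.6 and 41.3 at 3 h. Both UGT76C calls were lost with a pseudocount of 16 and without replicate 2 of 1 h. That of UGT76C2, at the 2-fold limit, was also lost under quantile normalization and median centring. Similar neighbours can share signal on short probes, and this was not tested.

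Among signalling and surface proteins not described above, RALFL32, of a family of small secreted peptides, gave 61.6 and 58 at 1 h and 224 and 174 at 3 h, a rise of 1.69 ± 0.34 (adjusted p = 0.00252). The lectin gene EULS3 gave 42.5 and 49.3 at 1 h and 169 and 155 at 3 h and rose by 1.77 ± 0.27 (adjusted p = 3.14e-04). Both stood apart between the times on all 4 arrays. DRT100, a leucine-rich repeat protein, gave 335 and 261 at 1 h and 121 and 151 at 3 h and fell, with a difference of −1.12 ± 0.22 (adjusted p = 0.00221), and was not called without replicate 1 of either time. In roots DRT100 gave 371 and 410.3 at 1 h and 177 and 117 at 3 h, so it was dimmer at 3 h in both tissues.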
